A study of Homo sapiens with 6 samples.

Results

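The BEX and TCEAL genes are 2 related families of small proteins that are clustered on the long arm of chromosome X. The 8 genes described here, BEX1, BEX2, BEX4, BEX5, TCEAL1, TCEAL3, TCEAL4 and TCEAL8, were taken by symbol from the 64253 genes of the count tables. They were chosen because the counts of the CdGAP-depleted libraries were known to lie above those of the control libraries for most of them, so the fold changes of these 8 genes are a description and carry no test. RNA was sequenced from PC-3 cells, an androgen-independent human prostate cancer line grown from a bone metastasis. The 2 groups were cells carrying a short hairpin RNA against CdGAP (shCdGAP, 3 libraries) and cells carrying a control shRNA (shCon, 3 libraries). CdGAP is a GTPase-activating protein for the small GTPases Rac1 and Cdc42 and is encoded by ARHGAP31. According to the study's methods the CdGAP-depleted cells were selected with puromycin and cloned from single cells, and this is not stated for the control cells, so an effect of the knockdown and a property of a clone cannot be told apart. The methods name 3 independent samples per group without saying what separates them, so every SD and SE below measures only the spread between these libraries.

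BEX stands for brain expressed X-linked, and TCEAL for transcription elongation factor A like. BEX proteins are short, largely disordered adaptors. BEX1 and BEX3 bind the neurotrophin receptor p75, BEX4 associates with microtubules, and BEX genes are known to be silenced by promoter methylation in several tumours. TCEAL proteins are named for their resemblance to the elongation factor TFIIS (TCEA), and for most of them the molecular role is poorly known. Both families are placental mammal genes that arose by local duplication and are expressed most strongly in brain.

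The libraries held between 33182796 and 43154039 counted reads. For ARHGAP31, the target of the hairpin, 1072, 1181 and 926 reads were counted in shCdGAP against 2472, 2557 and 1923 in shCon, a log2 fold change of -1.14 ± 0.0409 (SE; edgeR quasi-likelihood test, Benjamini-Hochberg adjusted p = 8.75e-08). One library stood apart. Within shCdGAP, the chi-square statistic per degree of freedom was 27.284 between replicates 1 and 2 and 33.734 between replicates 2 and 3, against 3.224 between replicates 1 and 3 and between 2.592 and 7.021 within shCon. Replicate 2 of shCdGAP is named below beside BEX2 and NCAM1, whose fold changes it moved. It moved those of other genes too, which are not marked below. Without it the log2 fold change went from 6.24 to 5.96 for GAP43, from 1.26 to 1.14 for SYT1 and from 1.45 to 1.52 for TUBB3. Epithelial markers were present in both groups, with the 5 genes KRT8, KRT18, KRT19, EPCAM and CDH1 summing to between 1314 and 1724 TPM (transcripts scaled by exon length and library size) in shCdGAP and between 910 and 942 in shCon. They did not move together. The means of KRT19 (601 ± 160 TPM in shCdGAP against 290 ± 9.21 in shCon) and EPCAM (339 ± 20.2 against 132 ± 2.5) were higher. KRT8 (155 ± 8.64 against 148 ± 1.43) and KRT18 (339 ± 33.7 against 314 ± 5.69) differed little, and CDH1 was lower (23.0 ± 9.03 against 37.7 ± 1.01). Of the immune markers, CD3E was at 0 and PTPRC reached at most 1 read in a library. The 3 fibroblast markers COL1A1, COL3A1 and PDGFRB summed to between 29.1 and 29.8 TPM in shCdGAP and between 7.84 and 8.38 in shCon, and the 3 endothelial markers PECAM1, VWF and CDH5 to between 1.27 and 3.19 and between 2.97 and 3.04. The part of these differences in the values of the BEX and TCEAL genes was not tested. Of the prostate luminal markers, KLK3 and KLK2 were at 0 in every library.

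The promoters of the family share a short stretch, which is shown first because it is the one sequence that nearly all of these genes had in common. In the RefSeq promoter table (build GRCh38.p14, 250 bases before to 50 bases after each start site), 7 motifs were searched on both strands. The letters CACGTG, the E-box that many basic helix-loop-helix leucine zipper factors read, stood in the promoters of 7 of the 8 genes, all but BEX5. Of all 35116 promoters, 7.26% held them, or 8.77% of the 27305 genes. Each line below gives 30 bases around the motif on the strand of the gene, 5′ to 3′, with CACGTG in capitals.

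BEX1: acgcacggccctCACGTGaccgggagctgc
BEX2: tgacaacagccaCACGTGatcggccaacac
BEX4: tgacaacagcccCACGTGaccggccaacac
TCEAL1: acgcgcgtccctCACGTGaccaggagcctc
TCEAL3: tgacgcggcgctCACGTGacccgccgggcg
TCEAL4: ggctgcggcattCACGTGatctgcacgggc
TCEAL8: tgacgcgactctCACGTGaccaggagtcga

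The stretches lie at chrX:103064201-103064230 on the minus strand for BEX1, chrX:103310992-103311021 on the minus strand for BEX2, chrX:103215077-103215106 on the plus strand for BEX4 and chrX:103255169-103255198 on the minus strand for TCEAL8. Those of TCEAL1, TCEAL3 and TCEAL4 lie at chrX:103628907-103628936, chrX:103607871-103607900 and chrX:103585493-103585522, all on the plus strand. The first base of the motif was 47 bases before the RefSeq start site in BEX1, 19 in BEX2, 3 in BEX4, 56 in TCEAL1, 80 in TCEAL3, 10 in TCEAL4 and 31 in TCEAL8. In the gene models of the count tables, whose starts differ from those of RefSeq, the stretch was exonic over all 30 bases in BEX1, BEX2, TCEAL4 and TCEAL8, exonic over 15 bases in BEX4, and intronic in TCEAL1 and TCEAL3.

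The other family genes held the motif as well, in 4 of the 5 whose promoters are in the table. They are shown because the motif did not separate genes that differed between the groups from those that did not.

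BEX3: acgcgcggccctCACGTGacccagagctgc
TCEAL2: tgacgcggtgctCACGTGacccgcccggcg
TCEAL5: tgacgtttttctCACGTGatctgaagccga
TCEAL6: tgacgcggtgctCACGTGagtgaccaggcg

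These 4 stretches lie at chrX:103376479-103376508 (BEX3, plus strand), chrX:102125615-102125644 (TCEAL2, plus strand), chrX:103276779-103276808 (TCEAL5, minus strand) and chrX:102142511-102142540 (TCEAL6, minus strand). TCEAL9 lacked the letters in this window. In all 11 stretches the motif was followed by A on the strand of the gene, which was so for 32.0% of the 2818 matches over all promoters. This base was compared after the sequences had been seen. The genes are duplicates of each other, so the 11 stretches are not independent. BEX2 and BEX4 differed at 2 of the 30 bases, TCEAL2 and TCEAL3 at 2, BEX1 and BEX3 at 3, and BEX1 and TCEAL1 at 5. Over the whole 300-base promoters, the 78 pairs of family genes had a median identity of 47.8%, with 75.3% for BEX2 and BEX4 and 73.5% for BEX1 and BEX3. BEX1 and BEX3, which were near copies in this stretch, lay at opposite ends of the family's fold changes (below).

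The 6 other motifs were found at shares that varied around those of all 27305 genes, where a gene counted if any of its promoters held the motif. GGGCGG, the core of a GC box, was found in 6 of the 8 genes and in 48.3% of all genes. CCAAT was found in 3 of 8 (BEX1, BEX5 and TCEAL8) and in 39.7%. The TATA box TATAAA was found in 0 of 8 genes against 14.0% of all genes, and the AP-1 site TGACTCA in 0 against 6.05%. The YY1 site CCATNTT was found in 0 against 18.6%, and the motif ACTACAA in 0 against 3.43%. The observed over expected ratio of CpG dinucleotides ran from 0.575 in BEX4 to 0.774 in TCEAL8, against a median of 0.579 over all promoters.

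BEX1 showed the widest gap between the groups. Its reads numbered 3084, 2954 and 2725 in shCdGAP and 58, 41 and 35 in shCon. This corresponded to 74.4 ± 5.91 CPM (reads scaled to library size; SD, n = 3) against 1.14 ± 0.216, a ratio of 65.4, and to a log2 fold change of 6.02 ± 0.113 (SE). The lowest shCdGAP library, replicate 2 with 67.8 CPM, lay far above the highest shCon library, replicate 1 with 1.38 CPM. BEX1 lies at chrX:103062651-103064240 on the minus strand (GRCh38).

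BEX4 had 592, 693 and 502 reads in shCdGAP and 116, 126 and 102 in shCon. Its level was 15.0 ± 0.755 CPM against 2.95 ± 0.165, a log2 fold change of 2.35 ± 0.0866 (SE), with the 3 shCdGAP libraries between 14.6 and 15.9 CPM and no overlap between the groups. BEX4 lies at chrX:103215092-103217246 on the plus strand.

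BEX2 had 208, 377 and 212 reads in shCdGAP and 131, 122 and 98 in shCon, that is 6.65 ± 1.81 CPM against 2.99 ± 0.118. The groups did not overlap, but the shCdGAP libraries were uneven, with 5.13, 8.66 and 6.17 CPM. The log2 fold change was 1.15 ± 0.189 (SE) and became 0.90 without replicate 2 of shCdGAP, the library that stood apart. In that library BEX2 lay 0.58 on the log2 scale above the mean of the other 2 shCdGAP libraries, where the median absolute value of this deviation over 11066 genes was 0.12. BEX2 lies at chrX:103309346-103311046 on the minus strand.

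BEX5 was close to the limit of detection. It had 2, 8 and 3 reads in shCdGAP and 0 in each shCon library, and it did not pass the filter on low counts. With 2 of the 3 shCdGAP libraries at or below the floor of 3 reads, no fold is given. BEX5 lies at chrX:102153708-102156057 on the minus strand, apart from the other members.

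The 4 TCEAL genes were already expressed in the control cells and differed less. TCEAL3 had 804, 803 and 676 reads in shCdGAP and 481, 492 and 414 in shCon, or 19.3 ± 0.762 CPM against 11.9 ± 0.568 (log2 fold change 0.70 ± 0.0646, SE). TCEAL8 had 1849, 2300 and 1696 reads against 1437, 1494 and 1205, or 49.3 ± 3.6 CPM against 35.4 ± 1.11 (log2 fold change 0.48 ± 0.0594, SE). In both genes each shCdGAP library lay above each shCon library.

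TCEAL1 had 740, 746 and 743 reads in shCdGAP and 708, 719 and 489 in shCon. Its levels of 19.0 ± 2.34 and 16.2 ± 1.25 CPM came close to touching, with the lowest shCdGAP library at 17.1 CPM just above the highest shCon library (log2 fold change 0.22 ± 0.0961, SE). TCEAL4 had 4242, 4372 and 3537 reads against 4102, 4167 and 3212, or 103 ± 2.14 CPM against 97.9 ± 0.766 (log2 fold change 0.07 ± 0.0346, SE). TCEAL4 was thus the most abundant of the 8 genes in the control cells and the one with the smallest fold change.

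**Figure D1:**
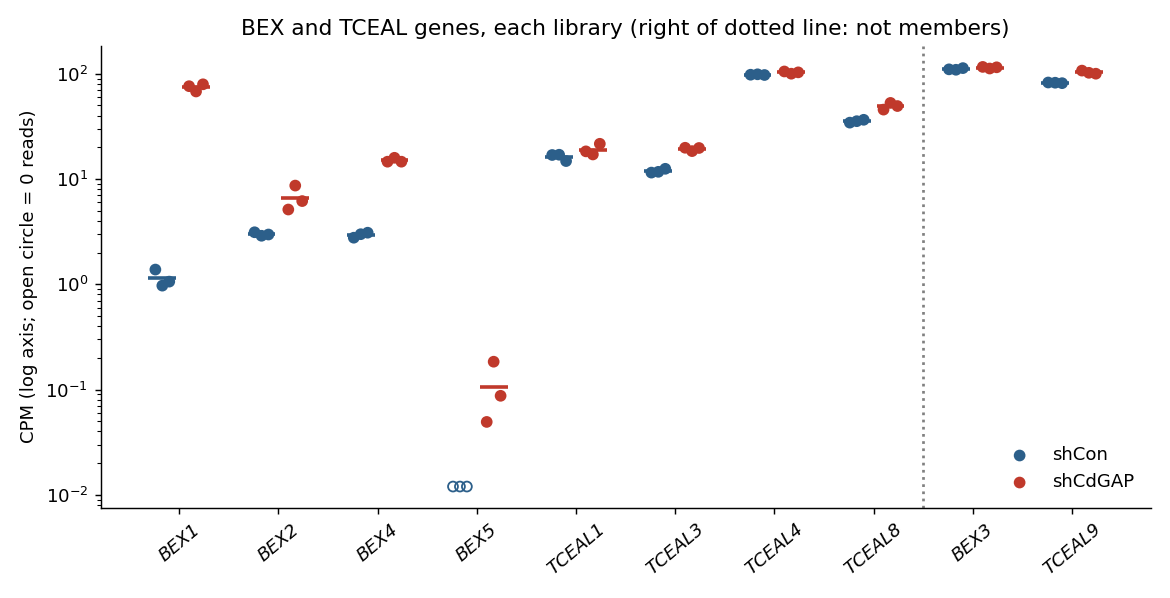
CPM (log axis) of the 8 BEX and TCEAL genes and, right of the dotted line, of BEX3 and TCEAL9 in each library, with shCon in blue, shCdGAP in red, a bar at the mean of each group and open circles for 0 reads. BEX1 lies between 67.8 and 79.3 CPM in shCdGAP and between 0.971 and 1.38 CPM in shCon, while TCEAL4 and BEX3 lie near 100 CPM in both groups.

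In all 8 genes, BEX5 included, the lowest shCdGAP library lay above the highest shCon library, and this was so for 34.4% of the 16439 genes tested, with the reverse order in 32.7%. A gene was called at an adjusted p under 0.01 together with an absolute log2 fold change above 1. By this rule BEX1, BEX4 and BEX2 were called higher, that is 3 of the 7 members tested, where 8.56% of all tested genes were called higher. At the adjusted p alone 5 of the 7 passed, where 24.1% of all tested genes were higher, and TCEAL1 and TCEAL4 did not pass. The median log2 fold change of the 7 was 0.70, beside 0.01 over all tested genes. Since the 8 genes were chosen on this contrast, nothing is read from these counts.

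Levels of different genes were compared per exon length, as TPM. In shCon the order was TCEAL4 with 155 ± 1.64 TPM, TCEAL8 with 116 ± 3.49, TCEAL1 with 40.2 ± 3.18, TCEAL3 with 20.6 ± 0.941, BEX2 with 10.2 ± 0.393, BEX4 with 8.86 ± 0.489, BEX1 with 5.26 ± 0.998 and BEX5 at 0. No neighbours in this order overlapped. In shCdGAP BEX1 moved from the seventh to the first place with 347 ± 24.4 TPM. It was followed by TCEAL4 (164 ± 2.87 TPM) and TCEAL8 (163 ± 12.8), whose libraries overlapped, then by TCEAL1 (47.5 ± 5.37) and BEX4 (45.7 ± 2.7), which overlapped as well. TCEAL3 (33.8 ± 1.1 TPM), BEX2 (22.8 ± 6.4) and BEX5 (0.406 ± 0.267) closed the order.

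The summed level of the 4 BEX members therefore changed far more than that of the 4 TCEAL members. These sums leave out BEX3 and TCEAL9, which were not chosen. BEX3 was at 428 ± 5.34 TPM in shCdGAP and 408 ± 6.94 in shCon, and TCEAL9 at 379 ± 14.7 and 299 ± 2.65. The ratios below thus hold for the chosen genes and not for the whole families. The 4 BEX members summed to 416 ± 16.2 TPM in shCdGAP and 24.3 ± 0.982 in shCon, a ratio of 17.1. The 4 TCEAL members summed to 408 ± 8.4 TPM and 332 ± 3.56, a ratio of 1.23. BEX1 alone made up 42.1% ± 2.41 of the summed level of the 8 genes in shCdGAP and 1.48% ± 0.289 in shCon, and the share of TCEAL8 was 19.7% ± 1.68 against 32.5% ± 0.939.

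**Figure D2:**
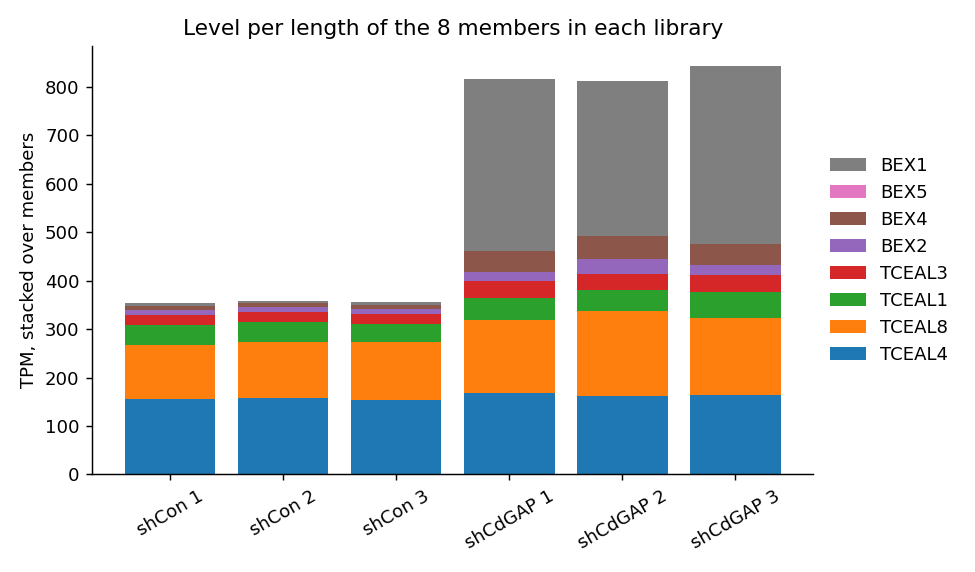
TPM of the 8 genes stacked in each library (linear axis), shCon left and shCdGAP right. The summed level lies between 354 and 359 TPM in the shCon libraries and between 814 and 844 TPM in the shCdGAP libraries, and most of the added height is BEX1.

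BEX and TCEAL transcripts are similar enough that some reads cannot be placed, and reads with more than 1 alignment were not counted. Of the 50-base stretches of the GENCODE transcripts, 3.49% of those of BEX1 were also found in another gene (BEX2), 2.45% of those of BEX2 (BEX1 and BEX4), 0.306% of those of BEX4, 1.15% of those of TCEAL4 and 0 of those of BEX5 and TCEAL8. The shares were higher for TCEAL3 (19.2%, mostly with TCEAL1 and TCEAL6) and TCEAL1 (14.5%, with TCEAL3). TCEAL1 and TCEAL3 also overlap on the same strand, where they share 287 exon bases, 17.8% of the exon length of TCEAL1 and 12.5% of that of TCEAL3. Their counts, and the split between them, are uncertain to that extent. TCEAL1 lies at chrX:103628704-103630953, TCEAL3 at chrX:103607451-103629690 and TCEAL4 at chrX:103576231-103587736, all on the plus strand, and TCEAL8 at chrX:103252995-103255203 on the minus strand.

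The rest of the family held 6 genes that were not chosen. BEX3 (NGFRAP1), which like BEX1 binds the p75 receptor, had 4706, 4899 and 3949 reads in shCdGAP and 4599, 4589 and 3728 in shCon. Its groups overlapped at 114 ± 1.83 and 110 ± 2.16 CPM, and the difference did not pass the test (log2 fold change 0.05 ± 0.0348, SE; edgeR quasi-likelihood test, adjusted p = 0.223). TCEAL9 (WBP5) had 4339, 4445 and 3441 reads against 3459, 3463 and 2687. It was higher in every shCdGAP library, at 103 ± 3.56 CPM against 81.9 ± 0.569, and passed the adjusted p without reaching the fold limit (log2 fold change 0.33 ± 0.0382, SE; edgeR adjusted p = 8.5e-05). TCEAL2 and TCEAL6 had 1 read each, in a single shCdGAP library, TCEAL5 had 1 read in a shCon library, and TCEAL7 had none. Of these 6 genes, 2 were thus measurable, 1 passed the adjusted p (and the unadjusted p under 0.05) in edgeR, and 0 were called by edgeR or DESeq2.

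**Figure D3:**
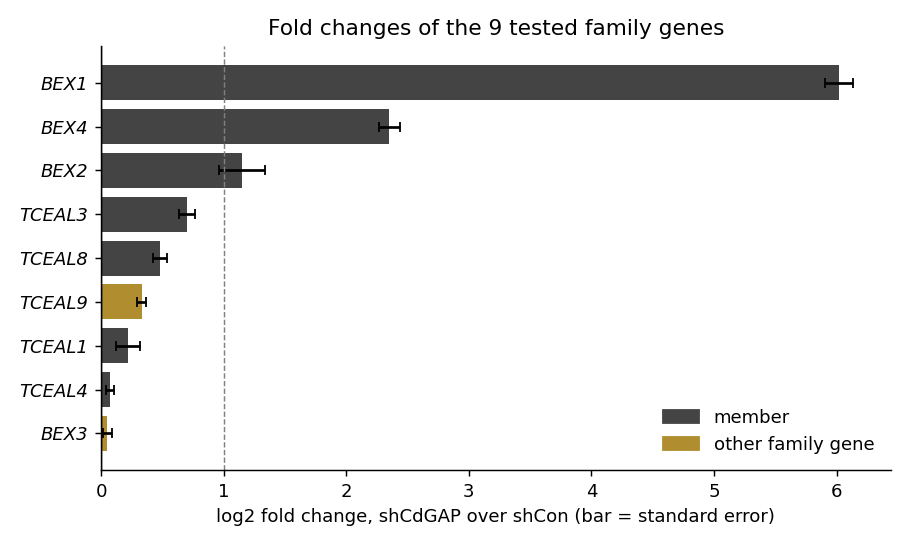
Log2 fold change, shCdGAP over shCon, of the 9 BEX and TCEAL genes that passed the filter on low counts, with the standard error as error bar, members in dark grey and other family genes in ochre, and the fold limit dashed at 1. BEX1 (6.02), BEX4 (2.35) and BEX2 (1.15) lie above the limit, and TCEAL4 (0.07) and BEX3 (0.05) are the smallest.

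The genes whose pattern over the 6 libraries was most like that of BEX1 were found by the root mean square difference of centred log2(CPM + 0.5) values, over 11065 genes with a mean of at least 5 CPM. The nearest were MMP13, a collagenase (difference 0.233), LPCAT2, an acyltransferase of lipid metabolism (0.257), STARD8, a GTPase-activating protein (0.262), DMKN (0.265) and TREM1 (0.393). MMP13 was at 2.62 ± 0.426 CPM in shCon and 144 ± 31.7 in shCdGAP, and DMKN at 0.379 ± 0.0388 and 29.9 ± 1.97 CPM. STARD8, which is also on chromosome X but outside the cluster, was at 0.0677 ± 0.0243 CPM in shCon and 21.4 ± 3.14 in shCdGAP. Among the members BEX4 came nearest, at rank 100 with a difference of 1.68, while TCEAL3 ranked 896, TCEAL8 1470, TCEAL1 2919 and TCEAL4 4389. With 2 groups of 3 libraries this measure mostly ranks the size of the group difference on the log2(CPM + 0.5) scale. The added 0.5 narrows this difference for genes near 0 in shCon. The fitted log2 fold changes were 10.12 for LPCAT2, 8.74 for TREM1 and 8.23 for STARD8, beside 6.02 for BEX1, 5.76 for MMP13 and 6.3 for DMKN. No value other than 0.5 was tried. BEX2, whose mean lay below that minimum, ranked 809 of 13488 genes with a mean of at least 1 CPM.

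The genes around the cluster were examined next, to set the members beside their neighbours. Of 134 genes that start within 2 Mb of the outermost members, 39 were tested. Of these, 8 were called higher (20.5%) and 3 lower (7.69%), beside 8.56% and 4.19% of all tested genes, and their median log2 fold change was 0.10. With the replicate number as a block, 9 rather than 11 were called. Over the 556 tested genes of chromosome X outside the family, 9.89% were called higher and 3.06% lower. Some called neighbours were adjacent among the tested genes. These were SRPX2 and ENSG00000261295 (log2 fold changes 1.68 and 1.98), and ARMCX2, GK4P and ZMAT1 (1.62, 2.01 and 1.06). Every tested gene from ARMCX1 to ARMCX5 was higher at the adjusted p, a run whose ends were set after the values were seen. Of the next tested genes, HNRNPH2 on one side was lower at the adjusted p (log2 fold change -0.45). ARMCX5-GPRASP2 on the other side did not pass (-0.35). Inside the run, ZMAT1 did not pass with the replicate block (edgeR adjusted p = 0.0124). Other called neighbours, such as TAF7L, lay between tested genes that were not called. NXF3, an mRNA export factor relative and the next tested gene to BEX1, had 73, 71 and 67 reads in shCdGAP and 6, 11 and 6 in shCon (log2 fold change 3.17 ± 0.241, SE; edgeR adjusted p = 6.66e-06). TAF7L, a germ-cell subunit of the general transcription machinery, went the other way, with 2, 5 and 4 reads against 38, 46 and 35 (edgeR adjusted p = 1.96e-05). Its summed level was 11.0 times higher in shCon (exact 95% counting interval 5.9 to 22.5).

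IL1RAPL2, an interleukin 1 receptor-like gene, was also lower, with 1, 1 and 0 reads against 19, 23 and 9 (25.8 times higher in shCon, counting interval 6.79 to 219). The unnamed gene ENSG00000234405 rose from 3, 4 and 2 reads to 19, 16 and 18 (5.82-fold, counting interval 2.84 to 13.4), and the pseudogene GK4P from 23, 23 and 15 to 77, 98 and 74. Neighbours of the cluster thus differed in both directions. NXF3, TAF7L, IL1RAPL2 and ENSG00000234405 had fewer than 10 reads in at least 1 library. With at least 10 reads required in every library, 5 neighbours were called. SRPX2, named after its values were seen, had 1230, 1497 and 919 reads in shCdGAP and 398, 417 and 303 in shCon (log2 fold change 1.68 ± 0.0937, SE; edgeR adjusted p = 1.02e-06).

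The ARMCX and GPRASP genes, a related group in the same region that code for armadillo-repeat and receptor-sorting proteins, were described separately. This group was not a planned list and was taken out of the neighbours counted above. Its shares are therefore a description, and nothing is read from them. Of the 9 tested, 5 were higher at the adjusted p (55.6%, beside 24.1% of all tested genes) and 0 lower (beside 22.0%), 2 were called higher (22.2%, beside 8.56%), and the median log2 fold change was 0.58. The 9 include the readthrough ARMCX5-GPRASP2, which overlaps ARMCX5 and GPRASP2. ARMCX1 had 13, 21 and 19 reads in shCdGAP and 0 in every shCon library. Against a floor of 3 reads per library it was at least 5.81-fold higher. ARMCX2, named after its values were seen, had 79, 56 and 60 reads in shCdGAP and 23, 25 and 15 in shCon (log2 fold change 1.62 ± 0.226, SE; edgeR adjusted p = 0.000271). GPRASP2 and GPRASP3 had log2 fold changes of 0.03 and 0.02 and did not pass. The motif CACGTG was also found in the promoters of 5 of the 8 genes of this group in the table. The stretches of ARMCX1 (chrX:101550506-101550535, plus strand) and ARMCX2 (chrX:101659893-101659922, minus strand) are shown because these were the ones called.

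ARMCX1: tgacgtggccctCACGTGagctggagccga
ARMCX2: cgatgcagccctCACGTGaccaggagctga

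GPRASP3, whose level was 9.26 ± 0.284 CPM in shCdGAP and 9.1 ± 0.263 in shCon, held the motif too. Genes with the motif included both called and uncalled ones in this group, as in the BEX and TCEAL family. What the motif does in these cells was not tested.

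**Figure D4:**
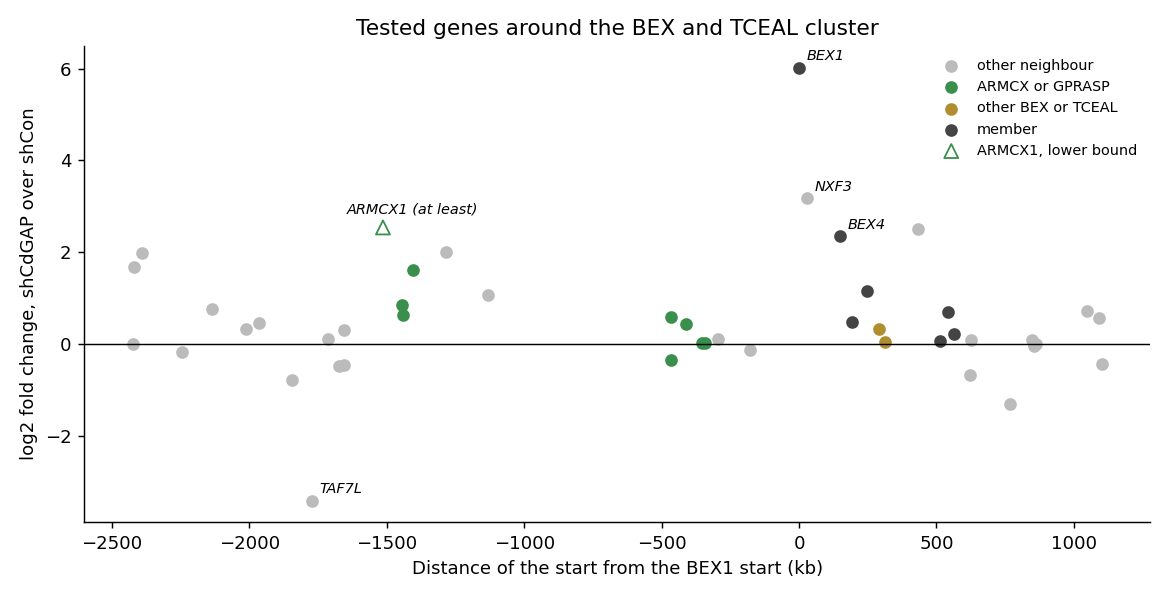
Log2 fold change, shCdGAP over shCon, of tested genes against the distance of their start from that of BEX1 in kb. Members are dark grey, other BEX and TCEAL genes ochre, ARMCX and GPRASP genes green and other neighbours light grey, the open triangle is the lower bound of ARMCX1, and IL1RAPL2 (2 reads in shCdGAP) is not drawn. BEX1 (6.02), NXF3 (3.17) and BEX4 (2.35) stand out near 0 kb.

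BEX1 and BEX3 are adaptors of the p75 receptor, so the genes of neurotrophin signalling were described next. The receptor itself, NGFR, had at most 1 read in any library. NTRK3 and NTF3 were at 0. Of the 12 genes of this list that were tested, 1 was called higher (8.33%, beside 8.56% of all tested genes) and 0 lower (beside 4.19%). At the adjusted p 4 passed in each direction (33.3%, beside 24.1% higher and 22.0% lower), and the median log2 fold change was 0.03. The one called was RTN4R, the Nogo receptor, with 146, 181 and 132 reads in shCdGAP and 40, 39 and 34 in shCon (log2 fold change 2.00 ± 0.137, SE; edgeR adjusted p = 3.55e-06). MAGED1, another p75 adaptor, had a log2 fold change of 0.47 and the ligand BDNF of -0.48, and both passed the adjusted p without reaching the fold limit.

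The TCEAL genes take their name from TCEA, so the machinery of transcription elongation was counted as well. All 31 genes of the list were tested. By edgeR and by DESeq2 0 were called, although 25 had an unadjusted p under 0.05 in edgeR. In the edgeR fit 8 were higher and 12 lower at the adjusted p (25.8% and 38.7%, beside 24.1% and 22.0% of all tested genes), and the median log2 fold change was -0.06. With the replicate block 6 were higher and 12 lower. TCEA1 (log2 fold change -0.17, edgeR adjusted p = 0.0113) and TCEA2 (0.12, adjusted p = 0.076) did not pass, and TCEA3 (0.58, adjusted p = 0.00938) was higher. TCEA1 passed with the block (edgeR adjusted p = 0.00987). The genes of this list moved by less than the fold limit in either direction, with a range from -0.72 to 0.59. NELFB (-0.72) and CDK9 (-0.57) lie on chromosome 9, whose 662 tested genes had a median of -0.42. The other genes lower at the adjusted p lie on other chromosomes.

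BEX and TCEAL genes are best known from neurons, so neuroendocrine markers were listed. Some of these markers were absent and others were present. CHGA, CHGB, INSM1 and ELAVL4 were at 0 in every library. UCHL1 was at 1097 ± 4.09 TPM in shCdGAP and 796 ± 8.78 in shCon, and ENO2 at 66.8 ± 13.7 and 44.2 ± 3.44. SYP was low, at 1.02 ± 0.181 and 0.637 ± 0.118 TPM. UCHL1 and ENO2 passed the adjusted p without reaching the fold limit, and SYP did not pass. The log2 fold change was above 0 for 8 of the tested genes and below 0 for 3. Of the 11 genes tested, 3 were called higher and 1 lower (27.3% and 9.09%, beside 8.56% and 4.19% of all tested genes), and the median log2 fold change was 0.66.

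GAP43, a growth-cone protein, had 193, 311 and 143 reads in shCdGAP and 2, 4 and 2 in shCon, 79.9-fold by summed level (counting interval 40.3 to 186; edgeR adjusted p = 1.58e-06). TUBB3, the neuronal beta-tubulin, was at 10.4 ± 0.944 CPM against 3.81 ± 0.414 (log2 fold change 1.45; edgeR adjusted p = 7.59e-06). SYT1, a calcium sensor of vesicle release, was at 23.0 ± 2.87 CPM against 9.62 ± 0.905 (log2 fold change 1.26; edgeR adjusted p = 1.21e-05). The adhesion molecule NCAM1 went the other way, with 1, 6 and 0 reads against 24, 18 and 13, and was 7.95 times higher in shCon (counting interval 3.61 to 20.7; edgeR adjusted p = 0.00266). Of its 7 shCdGAP reads, 6 came from replicate 2, the library that stood apart, and the log2 fold change of NCAM1 was -2.93 with all libraries, -4.84 without that one and between -4.84 and -2.46 without any 1 library. The NCAM1 call was lost without replicate 1 of shCdGAP (edgeR adjusted p = 0.0146) or without replicate 1 of shCon (0.0139), and over all its alternatives the adjusted p ran from 1.05e-07 to 0.0416. REST, the repressor of neuronal genes, was lower at the adjusted p (log2 fold change -0.25, edgeR adjusted p = 0.000549).

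Since BEX genes are known for silencing by methylation, the writers, readers and erasers of DNA methylation were counted. DNA methylation itself was not measured. Of the 17 genes tested, DNMT3B, a de novo methyltransferase, was called higher, with 726, 902 and 654 reads in shCdGAP and 386, 360 and 284 in shCon (19.2 ± 1.41 CPM against 8.78 ± 0.37, log2 fold change 1.13 ± 0.0759, SE; edgeR adjusted p = 3.09e-06). DNMT1, the maintenance methyltransferase, did not pass (log2 fold change -0.09; edgeR adjusted p = 0.466). UHRF1, which brings DNMT1 to newly copied DNA, was lower at the adjusted p, at 79.3 ± 11.2 CPM against 152 ± 2.06 (log2 fold change -0.94; edgeR adjusted p = 7.15e-05). Its relative UHRF2 was lower too (log2 fold change -0.88), beside a median of -0.42 over the 662 tested genes of chromosome 9, where it lies. At the adjusted p, 2 genes of the list were higher and 8 lower (11.8% and 47.1%, beside 24.1% and 22.0% of all tested genes), with a median of -0.15. The 1 gene called higher was 5.88% of the list, beside 8.56%.

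**Figure D5:**
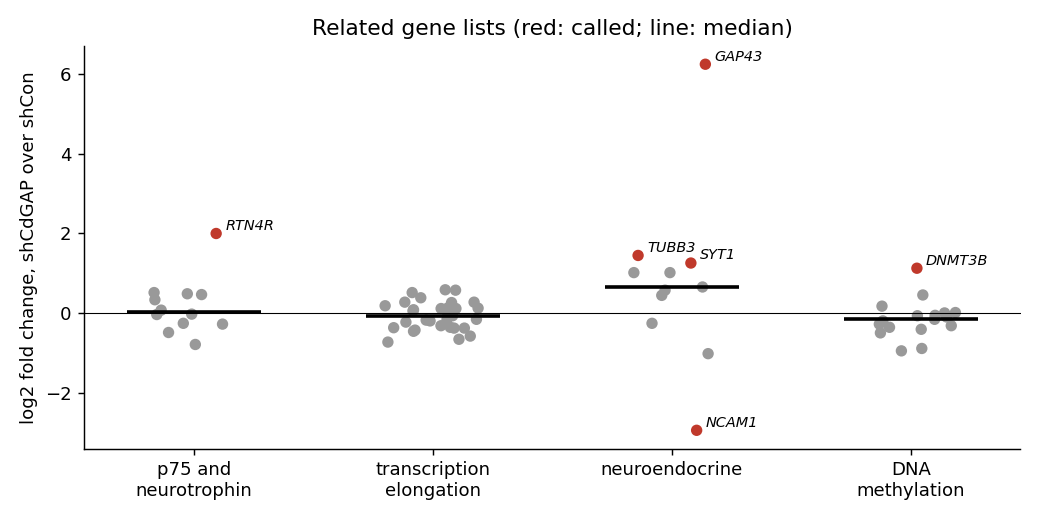
Log2 fold change, shCdGAP over shCon, of each tested gene of the 4 related lists, with called genes in red and labelled and a black line at the median of each list. The medians lie between -0.15 and 0.66, and GAP43 (6.24) and NCAM1 (-2.93) are the extremes.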

How the data were processed

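RNA of 6 PC-3 cultures was sequenced. The authors deposited raw counts per gene, 1 table of 64253 genes per library, made with STAR 2.5.1b and featureCounts on GRCh38 with Ensembl gene models. The table headers name featureCounts 1.6.0 with reverse-strand, paired-end counting, and the methods name 1.4.6 and a kit for single reads, so it is not settled whether a count, called a read here, is a read or a pair. Reads with several alignments were not counted.

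Counts were fitted with edgeR 4.0.16 in R 4.3.3 (filterByExpr, TMM, robust quasi-likelihood F test, Benjamini-Hochberg over 16439 genes). The SE is the absolute log2 fold change over the square root of F. CPM used TMM library sizes, and TPM was computed from the counts and the tables' exon lengths. In simulated counts 174 of 194 changed genes and 1 unchanged gene, of 16209, were called. The simulation changed few genes, by the same sizes in both directions, and drew its replicates independently. In the data 46.2% of tested genes passed the adjusted p and replicate 2 of shCdGAP stood apart. The simulated counts therefore check the procedure and give no error rate for these data. The members and lists were chosen with earlier results of these data known. Named genes were the members, family genes with a read, the called genes of each list (at most 6 by size) and the 5 nearest to BEX1. Other genes were named for their role or place after values were seen, such as NGFR, TCEA1, UHRF1 and SRPX2. Alternatives were DESeq2 1.42.0, other scalings, filters and thresholds, a replicate block and leaving out each library.

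Libraries of the same number deviated together weakly (correlations 0.1145, 0.1147 and 0.1004 over 11066 genes), each above 0.1, so the blocked values are given where they change a call. Libraries of different numbers had correlations between -0.1775 and 0.08955, the highest close to these values. The pairing comes from the numbers in the labels alone. Promoters were from RefSeq and shared stretches from GENCODE 44 transcripts. Identity between proteins was planned and not computed, because no protein sequences were used here, and shared 50-base stretches and promoter identity stand in its place. Counting intervals and floors cover counting error only. A few of the cell type markers examined are not reported here.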

Additional observations from a re-analysis of the deposited data

How the results depend on the processing

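The direction of the 7 tested members, and of BEX3, TCEAL9, RTN4R, GAP43, TUBB3, SYT1, NCAM1, DNMT3B, ARMCX1, IL1RAPL2, TAF7L, NXF3, ENSG00000234405 and GK4P, held under every alternative in which they were tested, and the fold changes of other named genes were not followed through all alternatives. Over the alternatives the log2 fold change ran from 5.89 to 6.18 for BEX1, 0.90 to 1.30 for BEX2, 2.29 to 2.38 for BEX4, 0.66 to 0.73 for TCEAL3, 0.41 to 0.52 for TCEAL8, 0.11 to 0.27 for TCEAL1 and 0.04 to 0.09 for TCEAL4. Without 1 library at a time, 2 to 3 members were called, the fewest without replicate 2 of shCdGAP, which took BEX2 below the fold limit. Over all genes 2096 were called (1407 higher, 689 lower), 1867 to 2369 without 1 library (1220 to 1469 higher, 634 to 900 lower), 998 in a test against the fold limit itself (658 and 340) and 7587 with no fold limit (3963 and 3624). With no fold limit the count rose to 5 for the members, 1 for the other family genes, 21 for the neighbours, 8 for the p75 list, 20 for elongation, 7 for the neuroendocrine list and 10 for DNA methylation. With at least 10 reads in every library, which tests fewer genes, 5 of 11 neighbours and 2 of 4 neuroendocrine genes were called. The test against the fold limit called 2 neuroendocrine and 0 DNA methylation genes, and an adjusted p under 0.05 called 7 neuroendocrine genes. Without 1 library the neighbours gave 9 to 11 calls, the neuroendocrine list 3 to 5 and the DNA methylation list 1 to 2 (2 without replicate 3 of shCdGAP); the cause was not tested. With the replicate block 2048 genes were called (1371 higher, 677 lower), and the calls of ZMAT1 and RAB9B among the neighbours were lost; no other call of a member or list changed. At the adjusted p alone, SORT1 (edgeR, 0.015), SUPT5H (0.0176), CCNT2 (0.0106), ELL2 (0.0154), MBD3 (0.0106) and ZCCHC18 (0.0131) no longer passed with the block and RPL36A (0.00348) did. Windows of 1 and 4 Mb gave 9 and 14 called neighbours. Coding length in place of exon length was not run. Depth limited BEX5, TCEAL2, TCEAL5, TCEAL6, TCEAL7 and NGFR, which had too few reads to compare.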
